A study of Mus musculus with 34 samples.

Results

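The homeostatic microglia genes described here are 9 genes that mark resting microglia, taken by name from the 55385 genes of the deposited count table: Csf1r, Cx3cr1, P2ry12, P2ry13, Gpr34, Siglech, Tmem119, Olfml3 and Sall1. They were followed through 34 poly-A RNA libraries, each from the cortex of a separately numbered mouse, and all mice were 6 months old. The question was how far these genes moved with an amyloid transgene set (5xFAD), with a segmental duplication that models trisomy 21 (Dp16), and with tofacitinib, an inhibitor of Janus kinases. The groups were 5xFAD-Dp16 tofacitinib (4 mice), 5xFAD-Dp16 sham (3), 5xFAD tofacitinib (5), 5xFAD sham (4), Dp16 tofacitinib (5), Dp16 sham (3), wild-type C57BL/6J tofacitinib (5) and wild-type C57BL/6J sham (5). Tofacitinib was given at 15 mg/kg by oral gavage each day for a month, and sham mice were gavaged with 0.5% methylcellulose. Females made up 16 of the 34 mice, with 1 to 3 females in each group. The design lists 1 mouse more in each of 2 groups, for totals of 6 (5xFAD tofacitinib) and 4 (5xFAD-Dp16 sham), and those mice were not analysed here. In the 5xFAD line, neurons rather than microglia express the mutant human amyloid precursor and presenilin transgenes, under Thy1 sequences. Dp16 mice carry a duplicated stretch of mouse chromosome 16, and none of the 9 genes lies in it.

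All 9 genes are protein-coding. On GRCm38 Csf1r, the receptor for CSF1 and IL-34 on which microglial survival depends, lies on chromosome 18 (61100598 to 61132149). Cx3cr1, the receptor for neuronal fractalkine, is on chromosome 9 (119901616 to 120069879). The ADP receptors P2ry12, which steers microglial processes towards injury, and P2ry13, its close relative, are neighbours on chromosome 3 (59216272 to 59262871 and 59207892 to 59210882). Gpr34, a receptor for lysophosphatidylserine, is on the X chromosome (13632089 to 13640858), and Siglech, a sialic acid binding lectin, is on chromosome 7 (55768178 to 55778925). Tmem119, a membrane protein used to mark microglia, is on chromosome 5 (113793729 to 113800516). Olfml3, a secreted olfactomedin-like protein, is on chromosome 3 (103722222 to 103738001), and Sall1, a zinc finger factor that maintains microglial identity, is on chromosome 8 (89027235 to 89044162).

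Microglia are the resident macrophages of the brain, and in healthy tissue they hold a surveying state kept up by CSF1 receptor signalling and by TGF-beta. Single-cell studies of amyloid models describe plaque-associated microglia that lower many of these resting-state genes while raising genes such as Cst7, Clec7a and Itgax. In bulk cortex a shift in microglial genes can come from a changed number of cells or from changed RNA per cell, and these cannot be told apart here.

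Upstream sequence is shown for the 4 genes that separate the patterns found below: Sall1, with the widest gap between 5xFAD and Dp16, the neighbours P2ry12 and P2ry13, which were lower with Dp16, and Siglech, which stood on the other side of zero. Each is the 250 bases before a RefSeq start on GRCm38.p6, 5′ to 3′ on the gene's strand: Sall1 at chr8:89044163-89044412 (minus), P2ry12 at chr3:59262986-59263235 (minus), P2ry13 at chr3:59210883-59211132 (minus) and Siglech at chr7:55767934-55768183 (plus). Capitals mark any match to 2 motifs, searched on both strands. The first, GAGGAA, is a core bound by the myeloid factor PU.1. The second, CAGAC, is the SMAD box used in TGF-beta signalling, and the motifs do not overlap each other.
Sall1: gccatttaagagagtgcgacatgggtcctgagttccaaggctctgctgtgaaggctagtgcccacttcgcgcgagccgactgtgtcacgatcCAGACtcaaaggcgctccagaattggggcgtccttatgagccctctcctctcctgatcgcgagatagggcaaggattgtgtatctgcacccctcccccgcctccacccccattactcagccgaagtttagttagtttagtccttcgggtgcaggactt
P2ry12: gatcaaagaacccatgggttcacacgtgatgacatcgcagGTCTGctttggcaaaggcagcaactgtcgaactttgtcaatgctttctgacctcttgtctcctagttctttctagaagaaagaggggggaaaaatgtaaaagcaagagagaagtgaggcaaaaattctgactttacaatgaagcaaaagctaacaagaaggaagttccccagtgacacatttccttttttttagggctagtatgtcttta
P2ry13: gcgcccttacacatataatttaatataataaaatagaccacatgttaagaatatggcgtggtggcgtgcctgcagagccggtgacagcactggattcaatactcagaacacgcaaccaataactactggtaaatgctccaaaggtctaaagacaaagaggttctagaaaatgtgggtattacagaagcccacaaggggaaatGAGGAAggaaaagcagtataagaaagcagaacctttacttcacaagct
Siglech: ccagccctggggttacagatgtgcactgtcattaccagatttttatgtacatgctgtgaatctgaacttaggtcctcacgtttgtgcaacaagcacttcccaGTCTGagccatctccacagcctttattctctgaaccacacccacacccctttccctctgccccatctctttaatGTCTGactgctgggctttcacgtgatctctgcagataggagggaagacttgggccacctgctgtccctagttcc
For Sall1 the sequence shown is window 1, and its windows 2 and 3, not shown, held neither motif. The PU.1 core stood in 1 of the 8 windows that RefSeq gave for 6 of the 9 genes, that of P2ry13, and in 23.3% of 32851 windows of all genes. The SMAD box stood in 4 of the 8, against 42.2% of all windows. These matches describe the letters only and say nothing of binding.

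The libraries held 16029841 to 21388650 counts. Levels are given as CPM, counts scaled to a common library total. Thy1 stood at 1427 to 2572 CPM in the 16 mice labelled 5xFAD or 5xFAD-Dp16, and at 824 to 952 CPM in the 18 others. The median of 106 tested genes of the duplicated segment stood 0.52 to 0.64 (log2) above the wild-type sham mean in the 15 mice labelled with Dp16, and -0.10 to 0.12 in the 19 others. On principal components, the libraries farthest out were 5xFAD tofacitinib 2 and wild-type sham 2. Summed levels of 2 marker lists ranged differently by genotype: the 7 striatum genes lay at 288 to 1349 CPM in Dp16 carriers against 427 to 1883 CPM in non-carriers, and the 9 border macrophage genes at 15.9 to 28.7 CPM against 13.2 to 24.8 CPM. No gene of either list was at 0 throughout. Libraries also differed in how far long genes stood above short ones, here called the length trend: the Spearman rho over genes between gene length and a library's deviation from the mean ran from -0.43 to 0.35.

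All 9 genes were detected in every library and passed the filter on low counts. Levels between genes were compared per length, with the RPKM values the authors deposited. In wild-type sham mice the order was P2ry12 (20.9 ± 3.37 RPKM), Csf1r (17.3 ± 2.68), Cx3cr1 (13.9 ± 1.41), Tmem119 (12.8 ± 1.69), Gpr34 (7.95 ± 3.45), P2ry13 (5.65 ± 1.05), Olfml3 (5.15 ± 0.733), Siglech (4.65 ± 0.648) and Sall1 (4.65 ± 0.939; SD, n = 5 for each). Every pair of neighbours in this order had overlapping ranges. Compared within each library, Csf1r stood above Cx3cr1, Cx3cr1 above Tmem119 and Olfml3 above Siglech in all 5 mice. The other neighbours kept their order in only 3 or 4 of the 5 mice. Gpr34 had the widest relative spread, with 12.9, 26.5, 8.88, 22.6 and 13.2 CPM in the 5 wild-type sham mice.

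**Figure D1:**
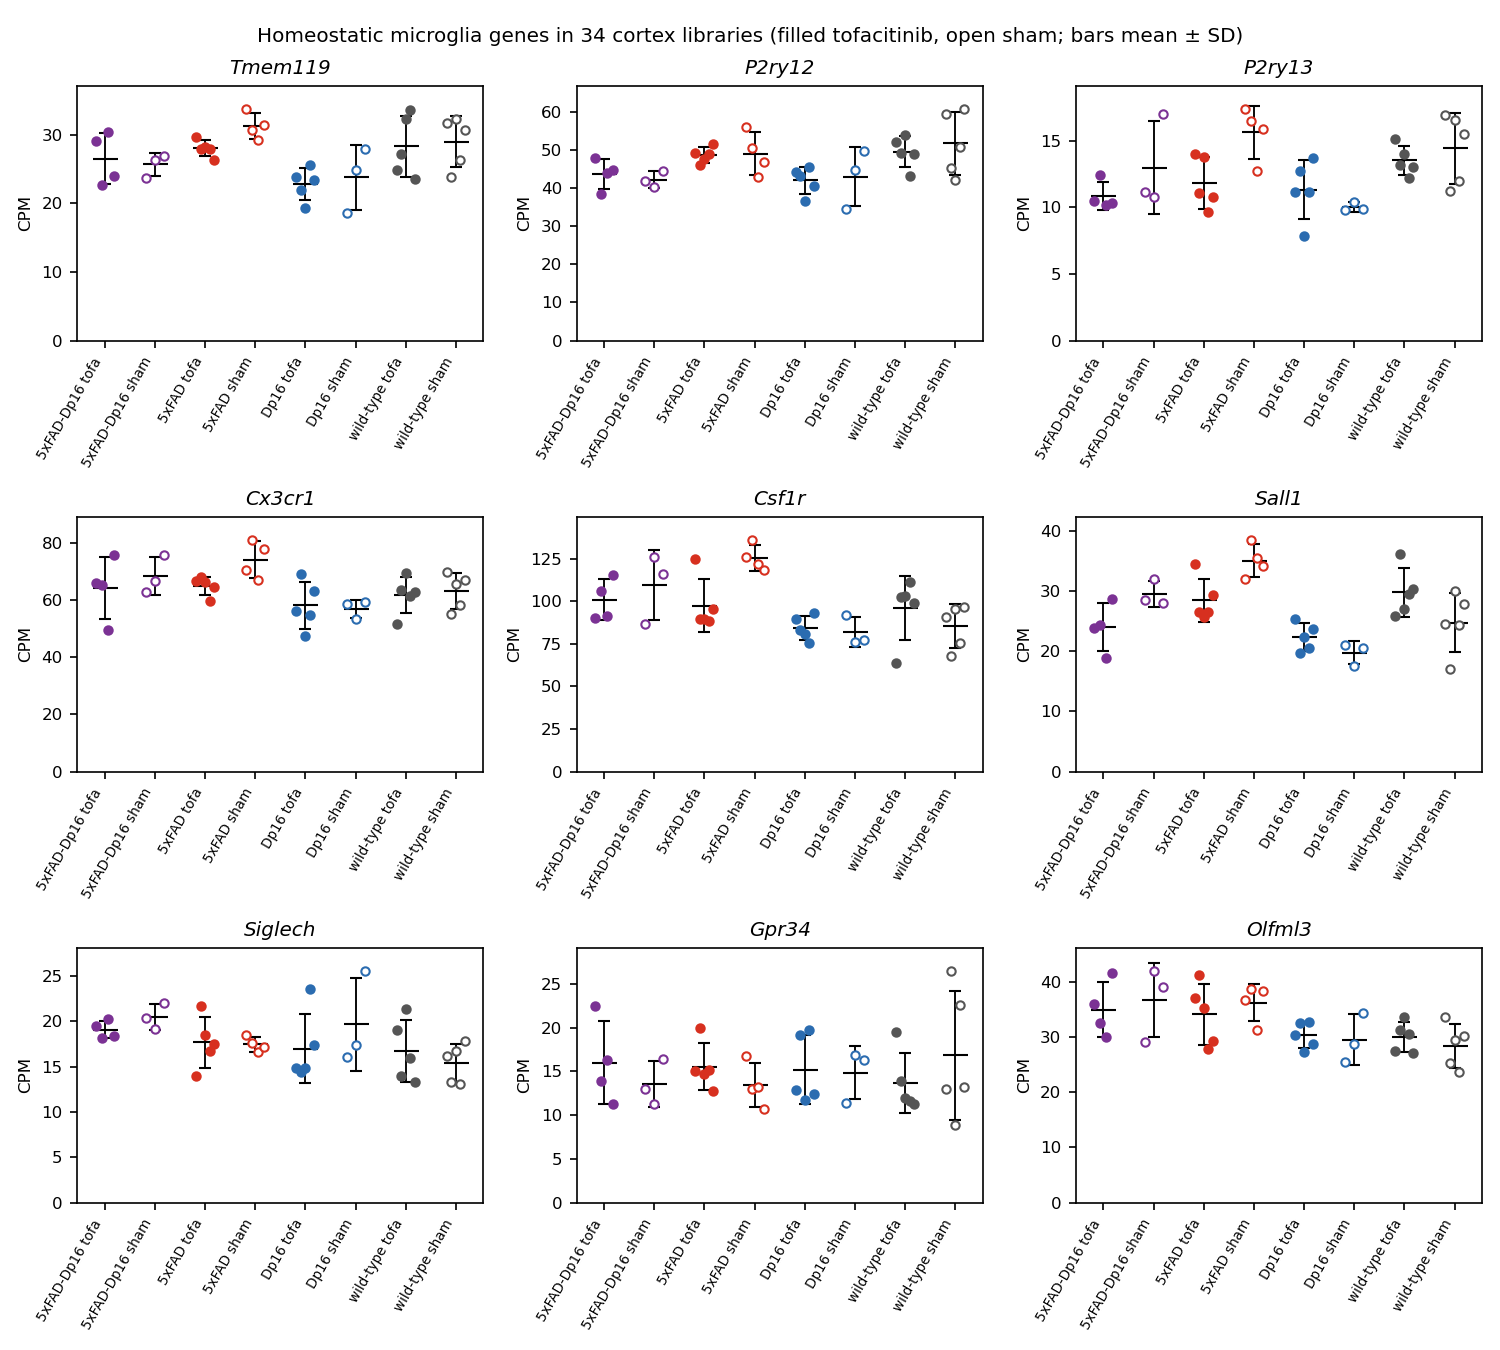
CPM of each of the 9 genes (y axis, from 0) in each library (points, filled for tofacitinib and open for sham) of the 8 groups, with the group mean and SD as bars. The 4 5xFAD sham mice, at 32.0 to 38.4 CPM, stood above every other library for Sall1 except wild-type tofacitinib 2 (36.2 CPM) and 5xFAD tofacitinib 1 (34.4 CPM).

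With 5xFAD, 1 of the 9 genes was called, and it was higher: Csf1r, at 1.24-fold. None was called lower. Sall1, Olfml3 and Cx3cr1 lay 1.13 to 1.21 times above the non-carriers without passing the threshold, and the 5 others lay within 0.12 of zero on the log2 scale. Of 17632 genes tested 0.42% were called in this comparison, 0.193% as higher and 0.227% as lower. The 9 genes had a median log2 difference of 0.12, with 7 of 9 above 0, where 50.7% of all tested genes lay above 0.

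Csf1r ran from 86.9 to 136 CPM (median 111) in the 16 5xFAD carriers and from 64.0 to 112 CPM (median 90.2) in the 18 non-carriers. The ranges overlapped, and 12 of 16 carriers lay above the non-carriers' median. The log2 difference was 0.31 with an SE of 0.07 (edgeR adjusted p = 0.0378). It was positive in all 4 pairs of groups that share a treatment and a Dp16 state, from 0.03 to 0.55. The call was lost in 14 of 34 fits that left out a library, with log2 differences of 0.28 to 0.35 and adjusted p up to 0.125. Those libraries were wild-type sham 2 and 4, 5xFAD sham 1, 2 and 3, 5xFAD tofacitinib 1, Dp16 sham 2 and 3, Dp16 tofacitinib 2 and 4, 5xFAD-Dp16 sham 2 and 4, and 5xFAD-Dp16 tofacitinib 2 and 4. The length trend was also higher in 5xFAD carriers, with a median of 0.17 against -0.08, and with that trend removed Csf1r differed by 0.27 (adjusted p = 0.0213). With 2 surrogate variables in the fit the difference was 0.19 (adjusted p = 0.0815).

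Sall1 lay at 18.9 to 38.4 CPM (median 28.6) in 5xFAD carriers and at 17.0 to 36.2 CPM (median 24.4) in non-carriers, a log2 difference of 0.28 ± 0.07 (SE; edgeR adjusted p = 0.0535). Olfml3 lay at 27.9 to 42.0 CPM (median 36.4) against 23.7 to 34.5 CPM (median 29.8), a difference of 0.26 ± 0.07 (adjusted p = 0.0584). For both genes 13 of 16 carriers stood above the non-carriers' median, and the ranges overlapped. Cx3cr1 stood at 49.5 to 80.9 CPM (median 66.6) against 47.5 to 69.7 CPM (median 60.3), with 14 of 16 carriers above the non-carriers' median and a difference of 0.17 ± 0.06 (adjusted p = 0.117). Olfml3 and Cx3cr1 were above 0 in each of the 4 pairs of groups.

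The purinergic receptors, which single-cell studies list among the genes lowered at plaques, gave small differences with 5xFAD: -0.02 ± 0.06 for P2ry12 and 0.06 ± 0.08 for P2ry13 (log2, SE). Gpr34 gave -0.04 ± 0.12, Tmem119 0.10 ± 0.06 and Siglech 0.12 ± 0.08, and the edgeR adjusted p of these 5 genes lay between 0.338 and 0.888. P2ry12 was thus held to a narrow interval and Gpr34 to a wide one, and the sign of Gpr34 turned under 3 other settings (limma-voom, 2 surrogate variables and removal of the length trend).

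**Figure D2:**
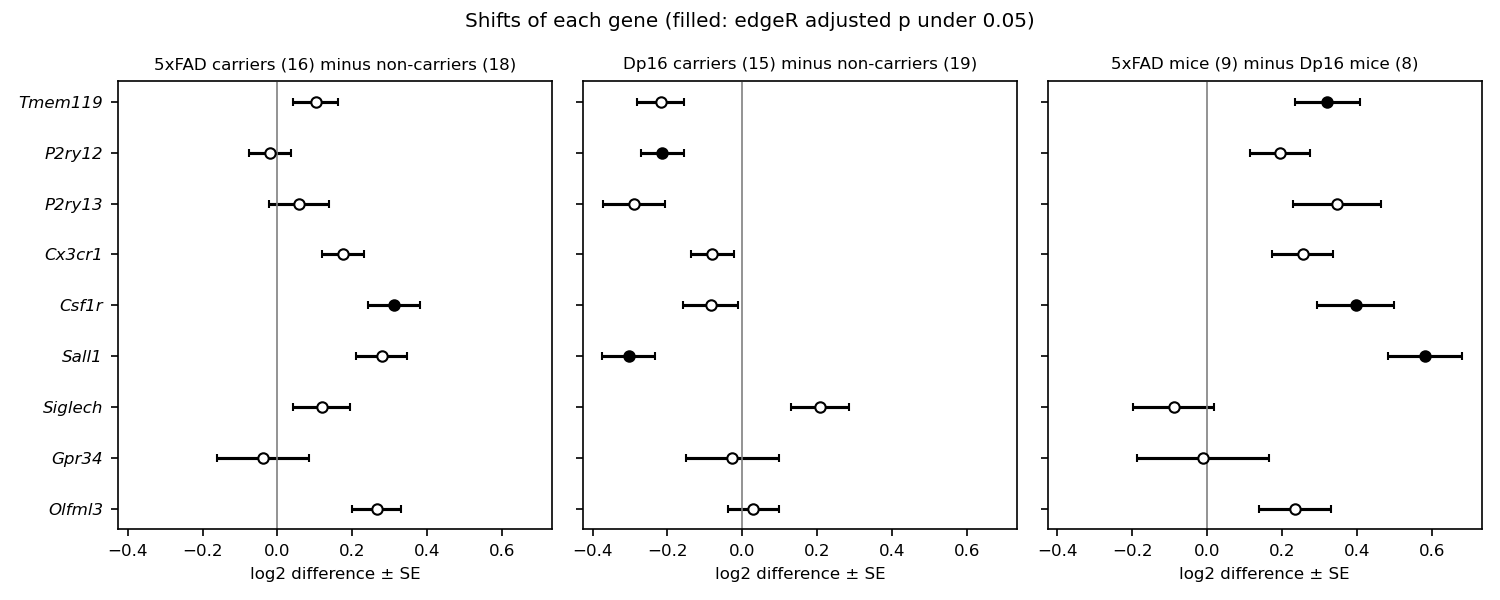
Log2 difference with its SE (x axis) for each of the 9 genes in 5xFAD carriers minus non-carriers, in Dp16 carriers minus non-carriers and in 5xFAD minus Dp16 mice; filled points have an edgeR adjusted p under 0.05. Sall1 lay at 0.28 with 5xFAD and at -0.30 with Dp16, and P2ry12 at -0.02 and -0.21.

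With Dp16, 2 of the 9 genes were called, both lower. Sall1 fell to 0.811 and P2ry12 to 0.863 of the level in non-carriers. Over all genes tested 0.975% were called lower, 1.17% higher and 2.14% in either direction. Tmem119 and P2ry13 stood at 0.859 and 0.818 of the non-carriers' level and missed the threshold, while Siglech stood at 1.15-fold. The median log2 difference of the 9 was -0.08, with 7 of 9 below 0, where 51.3% of all tested genes lay above 0.

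Sall1 lay between 17.6 and 32.0 CPM (median 23.7) in the 15 Dp16 carriers and between 17.0 and 38.4 CPM (median 29.3) in the 19 non-carriers. The ranges overlapped, with 14 of 15 carriers below the non-carriers' median. The log2 difference of -0.30 ± 0.07 (SE; edgeR adjusted p = 0.0158) lay between -0.41 and -0.24 in the 4 pairs of groups that share a treatment and a 5xFAD state. It was called in all 34 fits without 1 library, with adjusted p up to 0.0453, and with the length trend removed (-0.29, adjusted p = 0.00316). With the replicate number as a block the adjusted p was 0.0757.

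P2ry12 lay between 34.6 and 49.6 CPM (median 43.9) in Dp16 carriers and between 42.2 and 60.6 CPM (median 49.1) in non-carriers, and 14 of 15 carriers stood below the non-carriers' median. The log2 difference was -0.21 ± 0.06 (edgeR adjusted p = 0.0397) and lay between -0.26 and -0.15 in the 4 pairs. The call rested close to the threshold: it was lost in 19 of 34 fits that left out a library, with adjusted p up to 0.11 and differences of -0.25 to -0.18. Those libraries were wild-type sham 1 and 5, wild-type tofacitinib 2 and 3, 5xFAD sham 1 and 2, 5xFAD tofacitinib 1, 4 and 6, Dp16 sham 1 and 2, Dp16 tofacitinib 3 and 5, 5xFAD-Dp16 sham 1, 2 and 4, and 5xFAD-Dp16 tofacitinib 2, 3 and 4.

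P2ry13 lay between 7.85 and 17.0 CPM (median 10.8) in Dp16 carriers and between 9.64 and 17.4 CPM (median 13.8) in non-carriers, a log2 difference of -0.29 ± 0.08 (edgeR adjusted p = 0.0628). Tmem119 lay between 18.7 and 30.4 CPM (median 23.99) against 23.6 and 33.8 CPM (median 29.2), a difference of -0.22 ± 0.06 (adjusted p = 0.0574). For each gene 14 of 15 carriers stood below the non-carriers' median, and the 4 pairs of groups all lay below 0. The largest of the 4 differences for P2ry13 was in the sham pair without 5xFAD, and it was not called. P2ry13 stood at 9.81, 10.4 and 9.85 CPM in the 3 Dp16 sham mice and at 16.9, 11.2, 16.5, 12.01 and 15.5 CPM in the 5 wild-type sham mice. The edgeR log2 difference of that pair was -0.52 ± 0.17 (adjusted p = 0.425).

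Siglech lay on the other side, at 14.4 to 25.5 CPM (median 18.4) in Dp16 carriers and 13.1 to 21.7 CPM (median 16.8) in non-carriers. The log2 difference was 0.21 ± 0.08 (edgeR adjusted p = 0.187), and the 4 pairs lay between 0.04 and 0.38. Limma-voom called Siglech higher, by 0.24 (adjusted p = 0.00753), and called 9.98% of all genes tested. The remaining differences were -0.08 for Cx3cr1 and for Csf1r, -0.03 for Gpr34 and 0.03 for Olfml3, with adjusted p of at least 0.584. Striatum genes moved with Dp16 in the same libraries, with all 7 below 0, a median of -0.57 and none called; Drd1 stood at -0.72 and Drd2 at -0.70. Of 9 border macrophage markers 7 lay above 0, with a median of 0.35 and none called; Mrc1 stood at 0.12 and Cd163 at -0.29. The part of these in the shifts was not tested.

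**Figure D3:**
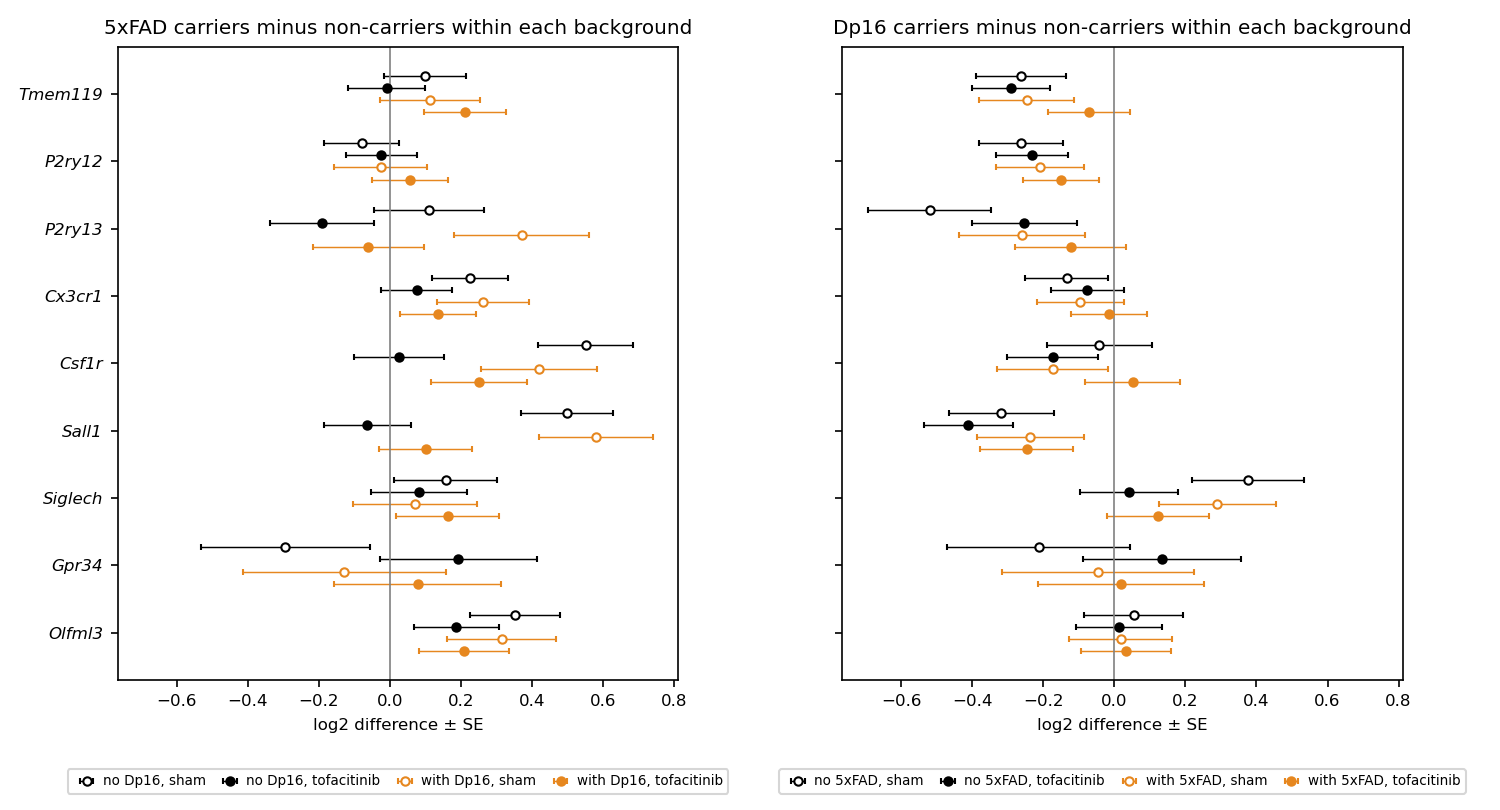
Log2 difference with its SE (x axis) for each gene in the 4 disjoint pairs of groups behind each genotype contrast, open for sham and filled for tofacitinib. Sall1 lay between -0.41 and -0.24 in all 4 pairs for Dp16, and in the 5xFAD pairs at 0.50 and 0.58 under sham and at -0.06 and 0.10 under tofacitinib.

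Set directly against each other, 5xFAD and Dp16 mice differed in 3 of the 9 genes, all higher in 5xFAD: Sall1 at 1.497-fold, Csf1r at 1.32-fold and Tmem119 at 1.25-fold. This comparison equals the 5xFAD shift minus the Dp16 shift and rests on the same fit, so it is not separate evidence for either, and it can pass where only one of them differs from 0. Of the genes tested 2.15% were called, 0.941% as higher and 1.21% as lower. The median of the 9 genes was 0.26, where 50.2% of all tested genes lay above 0.

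Sall1 stood at 34.4, 26.4, 25.7, 26.4 and 29.3 CPM in the 5xFAD tofacitinib mice and at 32.0, 38.4, 35.5 and 34.1 CPM in the 5xFAD sham mice. In Dp16 mice it stood at 25.3, 19.7, 22.3, 20.5 and 23.7 CPM with tofacitinib and at 21.1, 17.6 and 20.6 CPM with sham, so the lowest 5xFAD mouse lay just above the highest Dp16 mouse. The share of all tested genes that separate in this way is not given here. The log2 difference was 0.58 ± 0.10 (SE; edgeR adjusted p = 0.000665). It was called in all 34 fits without 1 library and under all 11 other settings, with differences of 0.47 to 0.61 and adjusted p up to 0.012.

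Csf1r lay between 88.5 and 136 CPM (median 119) in the 9 5xFAD mice and between 75.5 and 93.1 CPM (median 82.1) in the 8 Dp16 mice, a log2 difference of 0.40 ± 0.10 (edgeR adjusted p = 0.0343). Without 5xFAD sham 1 or 2, 5xFAD tofacitinib 1, Dp16 sham 2 or 3, or Dp16 tofacitinib 4 the adjusted p passed 0.05, up to 0.152, with differences no lower than 0.32. Tmem119 lay between 26.4 and 33.8 CPM (median 29.2) against 18.7 and 28.0 CPM (median 23.6), a difference of 0.32 ± 0.09 (adjusted p = 0.043). It was called in 17 of 34 fits without 1 library, with differences of 0.25 to 0.38, and the call was lost without wild-type sham 1, wild-type tofacitinib 2, 5xFAD sham 1, 2, 3 or 4, 5xFAD tofacitinib 1, 4 or 5, Dp16 sham 1 or 2, Dp16 tofacitinib 2, 3, 4 or 5, or 5xFAD-Dp16 sham 2 or 4. All 9 5xFAD mice stood above the Dp16 median for both genes and for Cx3cr1. Striatum genes differed here too, with all 7 above 0, a median of 0.51 and none called, and their part was not tested.

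The other 6 genes did not pass. Cx3cr1 gave 0.26 (edgeR adjusted p = 0.0798), P2ry13 0.35 (0.101), Olfml3 0.24 (0.161) and P2ry12 0.19 (0.168), while Siglech at -0.09 and Gpr34 at -0.01 lay near 0 with SEs of 0.11 and 0.18. None of the 9 genes was called in the interaction of 5xFAD and Dp16, by edgeR, DESeq2 or limma-voom, and none had an unadjusted p under 0.05. There 0.00567% of the genes tested were called, and the interaction values of the 9 lay between -0.01 and 0.20. Mice with both lesions had Sall1 at 23.8, 24.4, 18.9 and 28.7 CPM with tofacitinib and 28.5, 32.0 and 28.0 CPM with sham, and overlapped 5xFAD and Dp16 mice.

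Tofacitinib against sham gave no call among the 9 genes with edgeR, DESeq2 or limma-voom, and none had an unadjusted p under 0.05. The background was 0% of the genes tested. The largest difference of the 9 was in P2ry13, which lay between 7.85 and 15.1 CPM (median 12.2) in the 19 tofacitinib mice and between 9.81 and 17.4 CPM (median 12.7) in the 15 sham mice, a log2 difference of -0.14 ± 0.08 (edgeR adjusted p = 0.935). The other 8 lay between -0.07 and 0.04 with SEs of 0.06 to 0.12. A shift of several SEs can miss a call, as Tmem119 did with Dp16 at -0.22 ± 0.06, so shifts up to several SEs were not excluded.

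Whether the 5xFAD shift differed between treatments was tested as an interaction, which passed in none of the 9 genes. Against wild-type of the same treatment Sall1 in 5xFAD mice differed by -0.06 ± 0.12 with tofacitinib and by 0.50 ± 0.13 with sham. Against Dp16, 5xFAD-Dp16 mice differed by 0.10 ± 0.13 with tofacitinib and by 0.58 ± 0.16 with sham. In the 5xFAD mice themselves the 4 sham values lay above all tofacitinib values but mouse 1. The interaction of 5xFAD and treatment was -0.52 ± 0.14 for Sall1 (unadjusted p = 0.000597), -0.35 ± 0.14 for Csf1r (0.0195) and -0.37 ± 0.16 for P2ry13 (0.0313). The edgeR adjusted p was 0.331, 0.331 and 0.332. Of the 9 genes 3 had an unadjusted p under 0.05, as did 14.5% of all genes tested, and 0% were called.

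Csf1r stood at 125, 89.6, 89.7, 88.5 and 95.3 CPM in 5xFAD tofacitinib mice and at 126, 136, 122 and 119 CPM in 5xFAD sham mice. The edgeR log2 difference between those treatments was -0.35 ± 0.13 (adjusted p = 0.32), and mouse 1 of the tofacitinib group stood with the sham mice. The length trend followed the same split, at 0.35 in that mouse, -0.28 to -0.18 in the 4 other tofacitinib mice and 0.19 to 0.35 in the 4 sham mice. With the trend removed the interaction was -0.43 for Sall1 and -0.27 for Csf1r (adjusted p = 0.398 for both), and with 2 surrogate variables -0.31 and -0.11, again without a call. DESeq2 called 0 of the 9 genes in this interaction, and limma-voom with sample weights called Sall1 and Csf1r (adjusted p = 0.00389 and 0.00699), 2 of 9, where it called 21.4% of all genes tested.

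The interaction of Dp16 and treatment gave no call with edgeR, DESeq2 or limma-voom (0% of the genes tested with edgeR) and no unadjusted p under 0.05 among the 9. Between females and males 0.0624% of the genes were called with edgeR, none of them among the 9, again with none under an unadjusted p of 0.05 and none by DESeq2 or limma-voom. Siglech gave -0.15 ± 0.08 (female minus male) and Gpr34 0.20 ± 0.12, the widest of the 9. In the 14 comparisons of single groups no gene of the 9 was called with edgeR, and the most with an unadjusted p under 0.05 were 5 of the 9, in Dp16 against wild-type among sham mice, where 7.27% of all genes tested were under 0.05. In 5xFAD against wild-type among sham mice 4 of the 9 were, as were 24.8% of all genes. Among sham mice the share of genes called was 0.017% for 5xFAD, 0.21% for Dp16 and 0.363% for 5xFAD-Dp16 against wild-type, and for 5xFAD-Dp16 0.102% against 5xFAD and 0.00567% against Dp16. Among tofacitinib mice the same shares were 0.017%, 0.25%, 0.306%, 0.238% and 0.00567%, and for treatment within each genotype 0%. DESeq2 and limma-voom each called 2 of the 9 in 5xFAD against wild-type among sham mice, where they called 9% and 15.9% of all genes tested and edgeR gave 0.55 ± 0.14 for Csf1r and 0.50 ± 0.13 for Sall1 (adjusted p = 0.0606 for both).

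Of 20 further resting-state genes none was called with 5xFAD and 2 were called lower with Dp16: Adgrg1, an adhesion receptor, at -0.38 ± 0.08 (edgeR adjusted p = 0.0111) and Selplg, the ligand of P-selectin, at -0.35 ± 0.06 (adjusted p = 0.000822). Both were higher in 5xFAD than in Dp16 mice, by 0.60 and 0.56. The medians of this list were 0.15 with 5xFAD, -0.04 with Dp16 and 0.15 between them, against 0.12, -0.08 and 0.26 for the 9 genes. Of 15 pan-microglia genes Itgb2, an integrin chain, and Laptm5, a lysosomal membrane protein, rose with 5xFAD, by 0.45 ± 0.10 and 0.41 ± 0.08 (adjusted p = 0.0378 and 0.0149). None of the 15 was called with Dp16, and 1, Laptm5 (0.52), was called between the genotypes.

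Of the plaque-induced genes 20 of 22 passed the filter on low counts, and 8 of these rose with 5xFAD, none fell. Cst7, a protease inhibitor, gave 5.42 ± 0.59, Clec7a, a pattern receptor, 2.56 ± 0.33, Itgax, an integrin chain, 2.29 ± 0.37 and Ccl3, a chemokine, 2.13 ± 0.42 (log2, SE; edgeR adjusted p at most 0.0156). The rise of Cst7 was not seen in every carrier: it ran from 0.0497 to 14.2 CPM in the 16 carriers and from 0 to 0.935 CPM in the 18 non-carriers. Within the non-carriers' range lay 5xFAD sham 4 (0.0497 CPM), 5xFAD tofacitinib 6 (0.473 CPM) and 5xFAD-Dp16 tofacitinib 4 (0.404 CPM). Csf1r, the one called gene of the 9, rose by 0.31 in the same libraries. With Dp16 1 of the 20 was called, Lyz2 (lysozyme) at 0.55 ± 0.14 (adjusted p = 0.0321). The list held genes named in amyloid models, so its direction is no independent evidence.

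**Figure D4:**
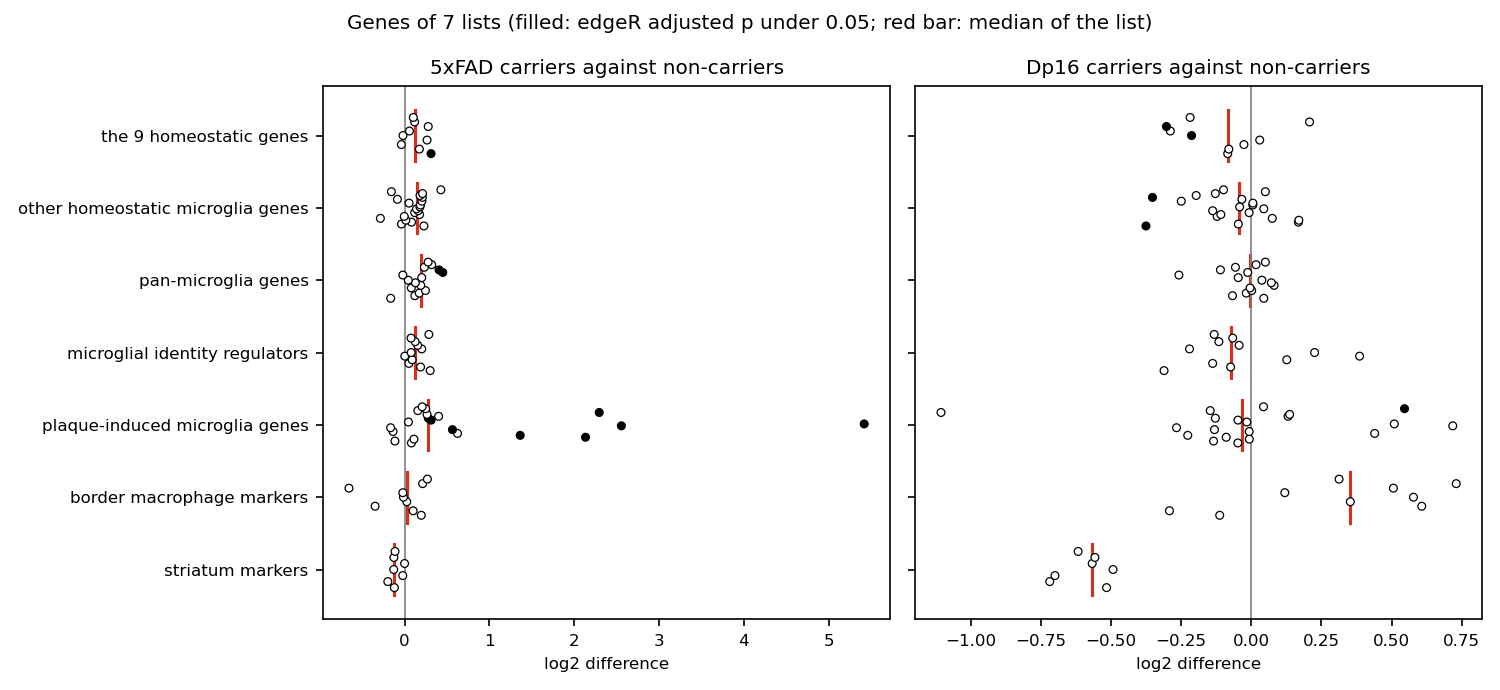
Log2 difference (x axis) of each tested gene of 7 lists with 5xFAD and with Dp16, filled at an edgeR adjusted p under 0.05, with the median of the list as a red bar. The medians of the plaque-induced list were 0.27 with 5xFAD and -0.03 with Dp16, and that of the striatum markers was -0.57 with Dp16; the 2 panels differ in their x scale.

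Blood and other cell markers were also followed. With 5xFAD all 5 choroid plexus markers (median -0.41) and all 5 haemoglobins (median -0.24) lay below 0, and with Dp16 both tested blood leukocyte markers, of 8 listed, lay above 0 (median 1.25). None of these was called. The 8 leukocyte markers summed to a median of 1.15 CPM, near the floor, and to 15.0 CPM at most, in a 5xFAD-Dp16 sham mouse. In Dp16 against wild-type among sham mice, 1 of the 2 lay above 0 (median -0.45). The choroid plexus markers summed to 7.38 to 1502 CPM, with the highest value in a 5xFAD tofacitinib mouse. With Dp16 Cnp, an oligodendrocyte gene (-0.25), and Cdh5, an endothelial gene (-0.27), were called lower, no astrocyte or neuron marker was called, and Gad1, a neuronal enzyme, was higher in 5xFAD than in Dp16 mice (0.27). Their part in the values of the 9 genes was not tested.

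The ligands of these receptors gave no call. Csf1, which binds Csf1r, stood at 0.36 ± 0.11 with 5xFAD (edgeR adjusted p = 0.101) and -0.09 ± 0.11 with Dp16 (adjusted p = 0.804), and Il34, its other ligand, at -0.11 ± 0.05 and 0.05 ± 0.05. Of 11 regulators of microglial identity none was called with 5xFAD, where 11 of 11 lay above 0 with a median of 0.13, and none with Dp16, where 3 of 11 did with a median of -0.07. Between 5xFAD and Dp16 mice 2 were called higher: Irf8, an interferon regulatory factor of the myeloid lineage, at 0.61 ± 0.14 (adjusted p = 0.0162) and Tgfbr2, a TGF-beta receptor chain, at 0.42 ± 0.10 (adjusted p = 0.0217).

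After group means and sex were removed, the 36 pairs of genes had a median Pearson r of 0.27 over the 34 libraries, from -0.64 (Sall1 and Gpr34) to 0.69 (Csf1r and Sall1), given as a description. Pairs that include Gpr34 had a median of -0.08, and pairs without it 0.34. The libraries share their depth and length trend. That trend is defined from gene length, so long genes rise with it and short genes fall on average by construction. The lengths behind the RPKM values were 4885 bases for Csf1r, 5265 for Sall1, 2090 for Gpr34, 3285 for Siglech and 5465 for Olfml3. The permutation p-values below have no background of all genes, so they do not set these genes apart from others of like length. Over the 34 libraries Csf1r followed the length trend with r = 0.82 and rho = 0.81, and Sall1 with r = 0.74 and rho = 0.76 (permutation p = 1e-05 for each, the smallest the test can give, adjusted 3e-05 over 9 genes). Gpr34 ran against it with r = -0.69 and rho = -0.70 (permutation p = 1e-05 for each, adjusted 3e-05), and Siglech with r = -0.55 and rho = -0.47 (permutation p = 0.0008 and 0.00611, adjusted 0.0018 and 0.0137). Without the 2 libraries farthest from the median, wild-type sham 3 and 5xFAD tofacitinib 1, r was 0.80, 0.67, -0.67 and -0.59 for these 4 genes. P2ry12 gave r = -0.42 and rho = -0.36 (permutation p = 0.0118 and 0.0358, adjusted 0.0213 and 0.0645; r = -0.39 without the 2), and Cx3cr1 r = 0.38 and rho = 0.32 (0.0251 and 0.0622, adjusted 0.0376 and 0.0934; r = 0.40 without the 2). P2ry13 gave r = 0.11 and rho = 0.19, Olfml3 0.14 and 0.11, and Tmem119 -0.10 and -0.09 (adjusted permutation p of at least 0.376), and without the 2 libraries r was -0.06, 0.08 and -0.28.

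**Figure D5:**
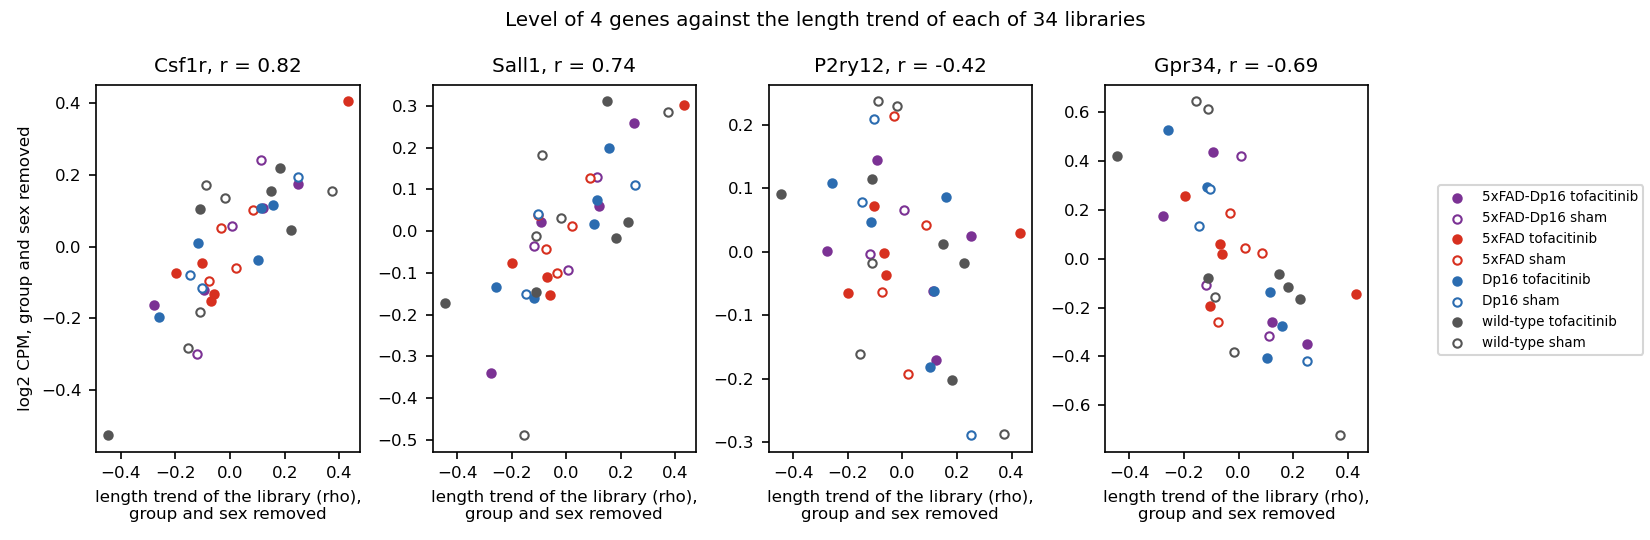
Log2 CPM of Csf1r, Sall1, P2ry12 and Gpr34 (y axis) against the length trend of the library (x axis), both after removal of group means and sex, 1 point per library, filled for tofacitinib. Csf1r and Sall1 were higher where the trend was higher (r = 0.82 and 0.74), and Gpr34 was lower (r = -0.69). The trend is itself defined from gene length over all tested genes.

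The 10 genes most alike in pattern to the 9, by median Pearson r over the 34 libraries after the same removal, were Pbxip1 (0.57), Sox2 (0.53), Tns3 (0.52), Sox1 (0.49), Cyyr1 (0.49), Agap1 (0.48), Rasgrp3 (0.48), Atp6v0a2 (0.48), Laptm5 (0.47) and Grin2c (0.47). Laptm5 was the only one that stood in a microglial list. Each of the 10 had a negative r with at least 1 of the 9 genes, down to -0.49 for Sox1. Without the removal of group and sex 3 of the 10, Sox2, Rasgrp3 and Grin2c, were again among the first 10.

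Some of these genes share ground with others, and the strand setting of the counting is not given in the sources used here. Csf1r shares 873 exon bases, 15.1% of its own, with Hmgxb3 on the opposite strand. P2ry12 and P2ry13 lie inside Med12l on the opposite strand, with 9 shared exon bases for P2ry12 and 0 for P2ry13. Gpr34 lies inside Cask with 0 shared, and Cx3cr1 shares 78 with Gm33858. Without strand, reads on the shared stretches cannot be assigned to one gene of a pair.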

How the data were processed

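Poly-A RNA of cortex was made into strand-specific libraries and sequenced as 150-base read pairs, per the labels' protocols. The submitters' processing notes name GRCm38 and, without their roles, HISAT2 2.1.0, HTSeq 0.6.1, SAMtools 1.5, FastQC 0.11.5 and bcl2fastq. The authors deposited counts as whole numbers per gene and mouse, and RPKM values scaled by gene length and library total. The gene length implied by the 2 kinds of value varied between libraries by at most 7.15e-14 of itself.

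Counts entered edgeR 4.0.16 (R 4.3.3): filterByExpr kept 17632 genes, TMM scaled the 34 libraries, which held 16029841 to 21388650 counts, and 1 quasi-likelihood fit held 8 groups and sex. The 22 comparisons were two-sided, with Benjamini-Hochberg adjustment over all tested genes and calls at 0.05. The SE is the log2 difference divided by the square root of F. Permutation tests drew 100000 permutations. The 9 genes, all lists, the model and the other settings were chosen with earlier results of these data known. All 9 genes are named. Of other lists, the called genes with the largest difference (up to 4) are named, or the first 2 listed where none was called, except 1 gene that is not reported here; Thy1 levels were added after their values were seen.

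The 12 other settings included DESeq2 1.42.0, weighted limma-voom (limma 3.58.1), DESeq2 size factors, TMM without genes of the duplicated segment, testing every gene unfiltered, keeping genes that average 1 CPM or more, no sex term, a replicate block, 2 surrogate variables (sva 3.50.0), only the groups compared, omission of both outlying libraries, and removal of a loess trend on gene length. Each library was also left out in turn. The labels number the mice but say nothing of litters or batches, so p-values measure the spread between these libraries. Replicates differed by more than counting error. Upstream windows are from RefSeq (GRCm38.p6) and gene positions from GENCODE.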

Additional observations from a re-analysis of the deposited data

Results flagged for a closer look

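In 54 sets of values (1 gene in 1 group of 4 or 5 mice) the highest and lowest mouse were compared with the rest, and 3 stood apart. Chance flags about 1 in 20 groups. Csf1r in 5xFAD tofacitinib mouse 1 was 124.8 CPM, where the other 4 mice of the group lay between 88.5 and 95.3 CPM. Csf1r in wild-type tofacitinib mouse 1 was 63.95 CPM, where the other 4 lay between 99.2 and 112 CPM. The length trend of these libraries was 0.35 and -0.35, the highest and the lowest of their own groups, and its part was not tested. P2ry13 in 5xFAD-Dp16 tofacitinib mouse 2 was 12.4 CPM, where the other 3 lay between 10.2 and 10.5 CPM.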

How the results depend on the processing

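Sall1 between 5xFAD and Dp16 mice was called under every setting run. There edgeR called 3 of the 9 genes, limma-voom 4 (adding Cx3cr1) and omission of both outlying libraries 4 (adding P2ry13). With 5xFAD, where edgeR called 1, DESeq2, limma-voom and no low-count filter each called 3. A mean of at least 1 CPM, no sex term, omission of both outlying libraries and removal of the length trend each called 2, and 2 surrogate variables called 0. With Dp16, where 2 were called, DESeq2, limma-voom, no sex term, 2 surrogate variables, omission of both libraries and removal of the length trend each called 4, a mean of at least 1 CPM 3 and no filter 1. The 4 were Tmem119, P2ry12, P2ry13 and Sall1, all lower, except with limma-voom, which called Siglech (higher) and not P2ry13. Several settings that called more of the 9 genes also called more of all tested genes, as given further below. With 5xFAD, omission of both outlying libraries did not, with 2 of the 9 and 65 of all genes called, where the main fit called 74. All settings refit the same mice, so the higher counts among the 9 are no added support. In the interaction of 5xFAD and treatment (0 called) limma-voom called 2 and no filter 1. In 5xFAD against wild-type among sham mice (0 called) DESeq2, limma-voom, no filter, no sex term and the fit of only these groups each called 2, and removal of the length trend 1. Limma-voom also called 1 in 5xFAD-Dp16 against wild-type and against Dp16 (sham) and in Dp16 against wild-type (tofacitinib), where it called 3.88%, 0.255% and 1.11% of all genes, and 3 for tofacitinib in 5xFAD mice, where it called 17.2%. With 2 surrogate variables 1 was called in Dp16 against wild-type under each treatment (0.386% of all genes among sham and 0.601% among tofacitinib mice), and the median of the 9 genes in 5xFAD-Dp16 against wild-type (sham) was -0.003877. The causes were not tested.

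The replicate block called 0 with 5xFAD, 0 with Dp16 and 1 in 5xFAD against Dp16. Under it the median of the 9 genes was -0.175 for female against male and -0.01901 for tofacitinib in 5xFAD mice, and Gpr34 between the sexes was -0.01249. Same-numbered mice had a mean correlation of -0.044 over 98 pairs, 5 of them over 0.1, and 2 of 34 libraries correlated best with their own number. No pairing by number showed in these correlations, which cannot exclude shared litters or batches because the labels do not give them.

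Leaving out each library in turn gave 0 to 4 called with 5xFAD, 1 to 4 with Dp16, 1 to 4 in 5xFAD against Dp16 and 0 to 2 in 5xFAD against wild-type (sham). Among sham mice the median of the 9 genes then ran from -0.205 to -0.04822 in 5xFAD-Dp16 against 5xFAD, from 0.1172 to 0.3156 in 5xFAD-Dp16 against Dp16 and from -0.348 to -0.1361 in Dp16 against wild-type.

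Signs turned in the following differences, none of which edgeR called with all 34 libraries. With 5xFAD, P2ry12 was 0.009277 with the length trend removed, and Gpr34 was 0.0398 with limma-voom, 0.2049 with 2 surrogate variables and 0.01355 with the length trend removed. With Dp16, Gpr34 was 0.05908 with limma-voom, 0.0086 without sex, 0.01669 with 2 surrogate variables and 0.06429 without both outlying libraries, and Olfml3 was -0.01124 with 2 surrogate variables. In 5xFAD against Dp16, 2 surrogate variables gave 0.01085 for Siglech and 0.1882 for Gpr34, and removal of the length trend 0.05342 for Gpr34. Among tofacitinib mice Csf1r was -0.1451 (5xFAD against wild-type, limma-voom), Siglech -0.0317 (Dp16 against wild-type, 2 surrogate variables) and P2ry13 0.0048 (5xFAD-Dp16 against 5xFAD, limma-voom). With 1 library left out, sign-turning ranges were as follows. With 5xFAD, P2ry12 ran from -0.05116 to 0.01186, P2ry13 from -0.004677 to 0.0853 and Gpr34 from -0.1022 to 0.007364. With Dp16, Gpr34 ran from -0.1072 to 0.03344 and Olfml3 from -0.01464 to 0.06278. In 5xFAD against Dp16, Siglech ran from -0.1594 to 0.01832 and Gpr34 from -0.1027 to 0.08355. Among tofacitinib mice, Csf1r and Sall1 in 5xFAD against wild-type ran from -0.09375 to 0.08108 and from -0.1521 to 0.0272, and Siglech in Dp16 against wild-type from -0.08934 to 0.1287.

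Over all genes the counts called depended on the tool. With 5xFAD edgeR called 74, DESeq2 587, limma-voom 589, no filter 1358, removal of the length trend 123, 2 surrogate variables 34 and the block 17. A mean of at least 1 CPM called 88 there, no sex term 80 and omission of both libraries 65. With Dp16 edgeR called 378, limma-voom 1760, 2 surrogate variables 1497, no filter 672, omission of both libraries 669 and the block 206. The Dp16 counts for DESeq2, no sex term, a mean of at least 1 CPM and removal of the length trend are not given here. In 5xFAD against Dp16 edgeR called 379, limma-voom 2679, omission of both libraries 1777, no filter 1441, 2 surrogate variables 898, DESeq2 824 and the block 126. In the interaction of 5xFAD and treatment edgeR called 0, limma-voom 3771 and no filter 675. In 5xFAD against wild-type among sham mice edgeR called 3, limma-voom 2806, no filter 1784, DESeq2 1587, only these groups 1428, no sex term 468 and removal of the length trend 223. In Dp16 against wild-type among sham mice edgeR called 37, no filter 158, 2 surrogate variables 68, DESeq2 63, limma-voom 63 and only these groups 6. Between the sexes edgeR called 11, no filter 84, 2 surrogate variables 61, DESeq2 27, limma-voom 18 and the block 5. In the interaction of 5xFAD and Dp16 edgeR called 1, no filter 47 and limma-voom 3. For tofacitinib against sham edgeR called 0, no filter 51, DESeq2 1 and limma-voom 0, and in the interaction of Dp16 and treatment edgeR called 0 and no filter 55. The median of all genes lay within 0.0313 of 0 under each setting. With 5xFAD, Gpr34 carried the widest SE of the 9 genes, above those of P2ry13 and Siglech, which stood at similarly low CPM.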
